A study of Homo sapiens with 2 samples.

Results

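The genes described here are the nuclear-encoded genes of the mitochondrial respiratory chain, grouped by complex, in LP-1 cells with and without added HIF-2α. A gene was taken when a probe set that the array annotation assigns to 1 gene symbol carried a name of the NDUFA, NDUFB, NDUFC, NDUFS, NDUFV, UQCR, COX4 to COX8, COXFA4 or ATP5F, ATP5M, ATP5P and ATP5IF families, or was SDHA, SDHB, SDHC, SDHD, CYC1 or CYCS. This gave 94 of the 18377 genes analysed. Of the 89 genes listed as subunits, isoforms, cytochrome c, the supercomplex factor COX7A2L or the inhibitor ATP5IF1, 83 were analysed here. The other members were 7 assembly factors of complex I, 2 pseudogenes, the lncRNA NDUFV1-DT and the coding copy ATP5MGL. Genes not analysed here as members include NDUFC2, NDUFS5 and ATP5F1E, whose probe sets carry several symbols.

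LP-1 is an established human multiple myeloma line, a cancer of plasma cells. RNA was hybridised to 2 whole-transcript Affymetrix arrays, 1 of cells infected with pRUF-IRES-GFP alone (the vector control) and 1 of cells infected with pRUF-IRES-GFP-HIF2A, which carries the full-length human HIF-2α cDNA. Both lines express the vector stably, while the sources used here do not give the oxygen level, the promoter that drives the cDNA or whether a line is 1 clone or a pool. Values are log2 signals, and a difference is always the HIF2A array minus the vector control, so that a difference of 1 is 2-fold. With 1 array per group there is no replicate spread, no test and no p-value, and every fold below compares these 2 arrays. EPAS1, which encodes HIF-2α, had signals of 3.70 in the vector control and 9.05 in the HIF2A array. All 8 plasma cell markers examined were above the median signal of the array in at least 1 array, although SLAMF7 and TNFRSF17 were lower in the HIF2A array by 5.24-fold and 2.04-fold. Of 18 markers of B, T, myeloid, stromal and endothelial cells, 5 reached that level, and the highest signal among them was 4.72.

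The respiratory chain passes electrons from NADH through complex I, or from succinate through complex II, to coenzyme Q, then through complex III and cytochrome c to complex IV, which reduces oxygen to water. Proton pumping by complexes I, III and IV drives the ATP synthase, complex V. Hypoxia-inducible factors are known, mainly for HIF-1 and in other cells, to lower oxygen use by inducing pyruvate dehydrogenase kinase and mitophagy receptors and by exchanging subunits. COX4I2 replaces COX4I1 in complex IV, the protease LONP1 degrades COX4I1, and COXFA4L2, long known as NDUFA4L2, is a paralogue of the complex IV subunit COXFA4, formerly NDUFA4.

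The promoters printed are those of a hypoxic isoform, a known HIF target and the members with the largest positive and negative differences. They are RefSeq windows of GRCh38.p14, 300 bases each, from 250 bases before to 50 after a gene's start, on the gene's strand and 5′ to 3′. Capitals mark each match to the core of the hypoxia response element, ACGTG or GCGTG on either strand. COXFA4L2 lies at chr12:57240713-57241012 on the minus strand, the first of its 2 listed starts. BNIP3, a mitophagy receptor gene that is no member and is shown as a known HIF target, lies at chr10:131981874-131982173 on the minus strand. COX7B, the member with the largest positive difference, lies at chrX:77899218-77899517 on the plus strand. NDUFB6, the member with the largest negative one, lies at chr9:32573110-32573409 on the minus strand.
COXFA4L2: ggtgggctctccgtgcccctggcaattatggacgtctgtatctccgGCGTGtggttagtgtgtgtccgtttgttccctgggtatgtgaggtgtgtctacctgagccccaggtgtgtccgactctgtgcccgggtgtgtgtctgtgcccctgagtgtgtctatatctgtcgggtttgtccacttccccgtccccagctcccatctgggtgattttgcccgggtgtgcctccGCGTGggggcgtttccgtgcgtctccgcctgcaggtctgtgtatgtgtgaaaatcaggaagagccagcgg
BNIP3: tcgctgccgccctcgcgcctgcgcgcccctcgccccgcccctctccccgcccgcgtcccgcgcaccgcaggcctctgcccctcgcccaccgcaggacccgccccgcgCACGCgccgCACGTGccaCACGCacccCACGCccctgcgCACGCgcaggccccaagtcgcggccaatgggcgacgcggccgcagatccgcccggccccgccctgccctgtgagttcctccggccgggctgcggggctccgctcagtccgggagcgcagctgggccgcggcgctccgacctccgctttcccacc
COX7B: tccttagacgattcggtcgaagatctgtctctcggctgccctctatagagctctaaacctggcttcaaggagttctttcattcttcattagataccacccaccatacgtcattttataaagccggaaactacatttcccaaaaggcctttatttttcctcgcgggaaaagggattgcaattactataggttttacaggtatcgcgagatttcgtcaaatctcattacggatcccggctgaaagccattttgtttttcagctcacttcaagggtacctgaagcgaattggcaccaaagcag
NDUFB6: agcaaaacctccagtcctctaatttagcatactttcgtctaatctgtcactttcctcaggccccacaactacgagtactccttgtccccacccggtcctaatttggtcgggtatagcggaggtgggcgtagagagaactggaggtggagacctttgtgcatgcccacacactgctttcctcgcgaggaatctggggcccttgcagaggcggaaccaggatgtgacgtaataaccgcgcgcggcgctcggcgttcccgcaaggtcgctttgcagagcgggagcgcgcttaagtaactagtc
The COXFA4L2 window held 2 matches and the BNIP3 window 6, of which 2 overlap on opposite strands in a palindrome. The COX7B and NDUFB6 windows held 0. The first of 2 listed windows of PDK1, a HIF-linked gene described further on, also held 0. Matches in the other PDK1 window are not given here, so PDK1 is not read as lacking one. PDK1 was 2.39-fold higher in the HIF2A array. BNIP3 had 6.49 in the vector control and 8.56 with HIF-2α, 4.20-fold higher, while COXFA4L2 had signals of 4.52 in the vector control and 4.44 in the HIF2A array. A match describes these letters only, and 48.4% of the 35116 windows of all genes hold one.

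Across the chain, most genes had nearly the same signal in both arrays. The median difference of the 94 members was 0.015, with 50 higher and 44 lower, beside a median of 0 over all 18377 genes, so neither direction prevailed. The middle range of the members, from the first to the third quartile, ran from -0.13 to 0.16, and 88 of the 94 differed by less than 1.5-fold. Higher by 1.5-fold or more was 1 member, COX7B, and lower by as much were 5, NDUFB6, NDUFC1, COXFA4, NDUFA5 and NDUFB5. These are 1.06% and 5.32% of the members, beside 3.81% and 3.37% of all genes. A filter that kept genes whose brighter array reached 4.01, the median signal, passed 87 members. Of these 2, NDUFB6 and ATP5MGL, passed through the vector control array only. Of the genes past the filter, 5.67% were 1.5-fold or more higher and 4.76% lower, together 10.4%. Of the members past it, 6.90% were at least 1.5-fold apart, NDUFB6 included. The 7 members that did not pass were the isoforms COX4I2, COX6B2, COX7B2, COX8C and COXFA4L3, the subunit COX7A2 and NDUFV1-DT.

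**Figure D1:**
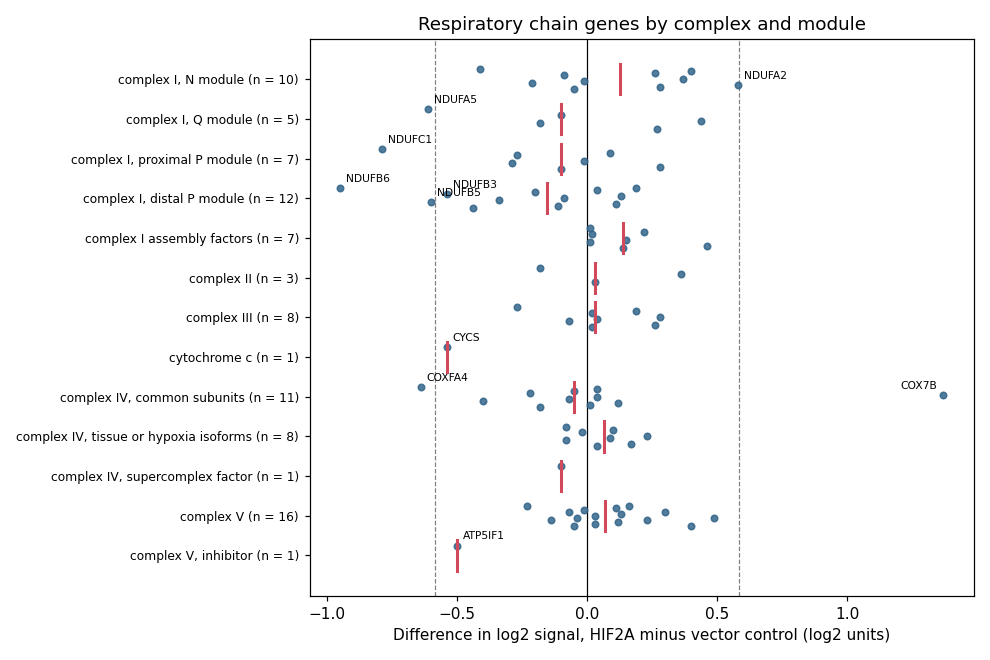
Difference in log2 signal between the HIF2A and the vector control array (x axis, log2 units) for each respiratory chain gene, in rows by complex and module; each point is 1 gene, red bars are medians and dashed lines mark 1.5-fold. COX7B stands alone to the right at 1.37, and the genes beyond the left line are NDUFB6, NDUFC1, COXFA4, NDUFA5 and NDUFB5.

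Of the hypoxic isoforms of complex IV, COX4I2 was at background in both arrays and COXFA4L2 differed by -0.08. COX4I2, the isoform of subunit 4 associated with low oxygen, had 3.39 in the vector control and 3.49 in the HIF2A array. Both lie under 3.58, the 95th percentile of 339 olfactory receptor genes in either array. That level stands for background because most of these genes are taken to be silent outside the nose. No fold can therefore be given for COX4I2. Its common partner COX4I1 had 7.41 and 7.23, a difference of -0.18. COXFA4L2 lay above the background in both arrays, and under the other ways of processing its difference ranged from -0.08 to 0.07. COXFA4L3, a paralogue induced in inflammation, was at background, at 3.03 and 3.01. COXFA4 itself, an accessory subunit of complex IV, had 7.69 in the vector control and 7.05 with HIF-2α, 1.56-fold lower. The muscle isoforms COX6A2 and COX7A1 had differences of -0.08 and 0.04, and the testis isoforms COX6B2, COX7B2 and COX8C had signals no higher than 3.66. Of the 8 isoforms 5 did not pass the filter.

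**Figure D2:**
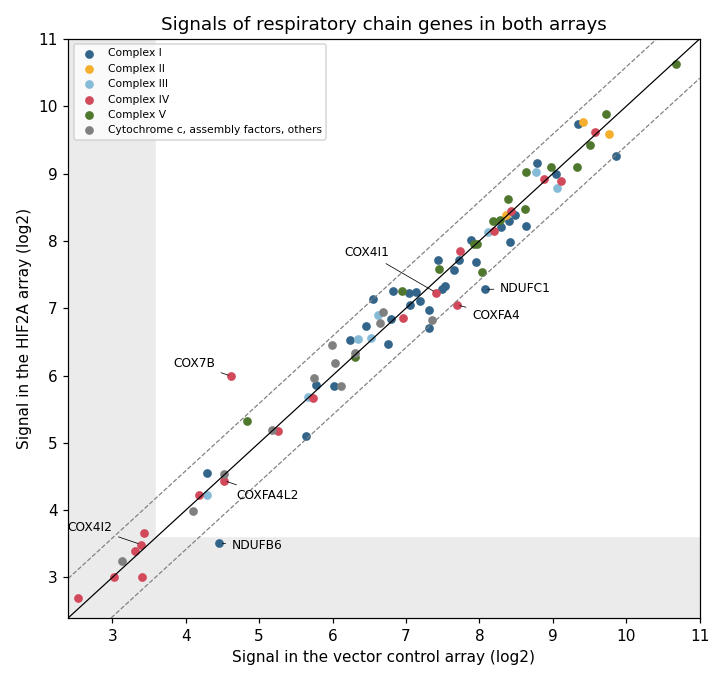
Log2 signal in the vector control array (x axis) against the HIF2A array (y axis) for the 94 members, coloured by complex; the solid line marks equal signals, dashed lines mark 1.5-fold, and grey bands show the background range set by olfactory receptor genes. COX4I2 sits in the grey corner, COXFA4L2 on the line just above it, and COX7B above the upper dashed line.

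Among the other common subunits of complex IV, COX7B stood apart. COX7B encodes a small nuclear subunit of the holoenzyme, and its signal was 4.62 in the vector control and 5.99 in the HIF2A array, which is 2.58-fold higher. It has 1 probe set, and its 20 nearest measured genes on the X chromosome had a median difference of 0.015. COX6A1 had a difference of -0.22, and COX6B1, whose product links the 2 monomers at the intermembrane side, one of 0.12. COX5A, COX5B, COX6C, COX7C and COX8A lay between -0.07 and 0.04. The probe set of COX7A2 was at background in both arrays, at 3.41 and 3.01, so its difference of -0.40 is not read. The 11 common subunits had a median of -0.05, and all 19 genes of complex IV one of 0.01, or -0.05 over the 13 past the filter. COX7A2L, which encodes a factor that joins complexes III and IV, had 6.96 in the vector control and 6.86 in the HIF2A array.

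Complex I had the lowest median of the 5 complexes, at -0.09 over 34 subunits, of which 21 were lower and 13 higher. The other medians were 0.03 for complex II, 0.03 for complex III, 0.01 for complex IV and 0.07 for complex V. With loess scaling the medians of complexes III and IV came to -0.0013 and -0.0027. With the neighbours' median subtracted from each gene, as described further on, complex II was lowest, at -0.155 over 3 genes, and it was also lowest, at -0.12, with the dimmer probe sets of SDHC and SDHD. The difference between complexes was not tested, since genes are not replicates of a condition.

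Within complex I the modules had medians of opposite sign. The distal P module, the far end of the membrane arm, had a median of -0.155 over 12 subunits, of which 8 were lower and 4 higher. NDUFB6 had 4.46 in the vector control and 3.51, below background, in the HIF2A array, a fold of at least 1.84 lower. NDUFB5 was 1.52-fold lower, at 9.26 against 9.86, and under 1.5-fold with median centring. NDUFB3, at 5.10 against 5.64, and NDUFB9, at 7.98 against 8.42, had differences of -0.54 and -0.44. NDUFB10, NDUFAB1, the mitochondrial acyl carrier protein, and NDUFB4 were the highest of the module, at 0.19, 0.13 and 0.11. The proximal P module, next to the peripheral arm, had a median of -0.10 over 7 subunits. In it NDUFC1, at 7.28 against 8.07, was 1.73-fold lower and NDUFA11 and NDUFA8 had differences of -0.29 and -0.27, while NDUFA3 and NDUFA13 had 0.28 and 0.09.

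The N module, which oxidises NADH, had a median of 0.125 over 10 subunits, with 5 higher and 5 lower. NDUFA2 was the highest, at 7.13 against 6.55, a difference of 0.58 that falls just short of 1.5-fold. NDUFV1 and NDUFV2, which hold the flavin and an iron-sulfur cluster, followed with 9.15 against 8.78 and 9.74 against 9.34. NDUFA6, NDUFA12 and NDUFS1, the largest subunit of complex I, had -0.41, -0.21 and -0.09. The Q module, which reduces coenzyme Q, ranged from -0.61 for NDUFA5, at 6.70 against 7.31, to 0.44 for NDUFA9, with a median of -0.10 over 5 subunits. NDUFS7, NDUFS3 and NDUFS8 of its core had -0.18, -0.10 and 0.27. By catalytic role, the 6 measured core subunits of the NADH and Q modules had a median of 0.09, and the 28 accessory subunits one of -0.095; with the neighbours' median subtracted these were -0.105 and -0.095. All 7 measured assembly factors named NDUFAF were higher, by 0.01 to 0.46, with NDUFAF7 highest at 0.46. NDUFAF2 had 0.22 on its brighter probe set, whose ID lies among those of chromosome 2 genes, and 0.10 on the set among IDs of its own chromosome. NDUFAF4 and NDUFAF6, at 0.02 and 0.01, turned negative under quantile and loess scaling. After subtraction of the neighbours' median 4 of the 7 were below 0, and the median of the assembly factors went from 0.14 to -0.01. With the neighbours' median subtracted the N module had a median of 0.03 and the distal P module one of -0.1175. The same subtraction gave -0.36 for the Q module and -0.03 for the proximal P module.

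Complex II, which also works in the TCA cycle, was represented by 3 of its 4 subunits. The flavoprotein gene SDHA had 9.41 in the vector control and 9.77 with HIF-2α, a difference of 0.36. The membrane anchor genes SDHC and SDHD had -0.18 and 0.03 on their brighter probe sets and -0.28 and -0.12 on the dimmer ones. In complex III, CYC1, the cytochrome c1 gene, had -0.27, at 8.78 against 9.05. UQCR11, the core protein gene UQCRC2 and its partner UQCRC1 had 0.28, 0.26 and 0.19. UQCRB, the ubiquinone-binding subunit gene, had -0.07, and UQCRH, UQCR10 and UQCRQ lay between 0.02 and 0.04. Cytochrome c, CYCS, had 7.36 in the vector control and 6.82 with HIF-2α, a difference of -0.54 or 1.45-fold.

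Complex V genes had a median of 0.07 over 16 subunits, with 10 higher and 6 lower, and 0 reached 1.5-fold. The F1 head genes ATP5F1A, ATP5F1B, ATP5F1C and ATP5F1D, which form the catalytic part, ranged from -0.07 to 0.16. ATP5MC3, 1 of 3 genes for the same c-ring protein, had 5.33 in the HIF2A array and 4.84 in the vector control, whereas ATP5MC1 and ATP5MC2 had -0.14 and 0.13. The stalk genes ATP5PO and ATP5PF were next, at 0.40 and 0.30, and ATP5PD was the lowest, at -0.23. ATP5IF1, which encodes the inhibitor that stops the synthase from hydrolysing ATP when respiration fails, had 8.03 in the vector control and 7.53 with HIF-2α, 1.41-fold lower.

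Several of the larger differences lay where neighbouring genes on the chromosome differed the same way. The median over the genes of chromosome 7 past the filter was -0.17, with 356 of 521 lower. There 4 of the 5 subunit or carrier genes were lower, COXFA4, NDUFA5, CYCS and NDUFB2, with ATP5MF at 0.03. The 20 nearest measured genes had medians of -0.305 around CYCS, -0.22 around COXFA4, -0.205 around NDUFB2 and -0.065 around NDUFA5. On chromosome 4, NDUFC1 lay among neighbours with a median of -0.545, which leaves a difference of -0.245. On chromosome 5, with a median of 0.28 over its genes past the filter, NDUFA2 lay among neighbours at 0.325 and UQCRQ, itself at 0.04, among neighbours at 0.375. NDUFB6 and NDUFB5 had neighbours at 0.055 and -0.025. After the neighbours' median was subtracted from each gene, 1 member stayed lower by 1.5-fold or more, NDUFB6, and 1 higher, COX7B, with NDUFB5 at -0.575. Of the 5 subunit or carrier genes whose neighbours had a median of -0.2 or lower, 4 were lower. Of the 8 with neighbours at 0.2 or higher, 6 were higher. The same share for all genes with such neighbours is not given, so these counts are not read as particular to the members. Among all 83 subunit or carrier genes, 42 were lower and 41 higher. What part of each gene's difference it shares with its neighbours was not tested beyond this subtraction.

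**Figure D3:**
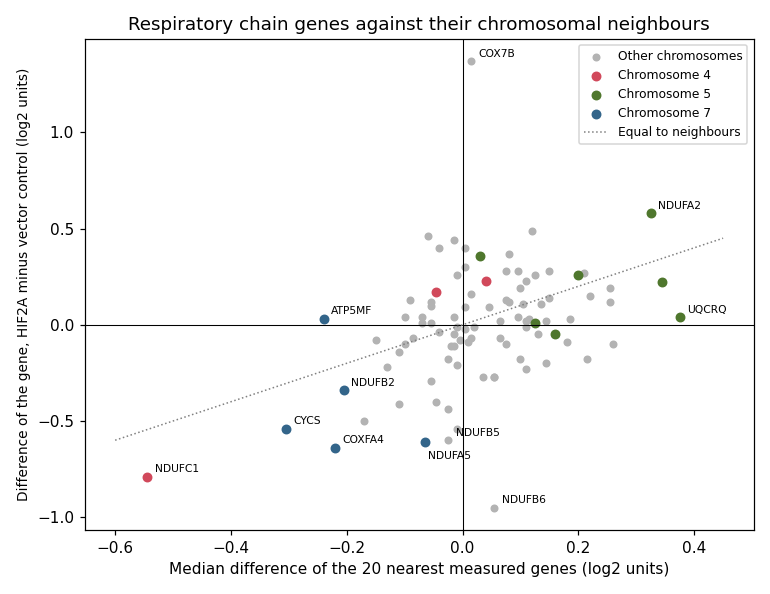
Difference of each of the 94 members (y axis, log2 units) against the median difference of up to 20 nearest measured genes on the same chromosome (x axis, log2 units). Chromosomes 4, 5 and 7 are coloured and the dotted line marks equality. NDUFC1, CYCS and COXFA4 lie at the lower left with neighbours that were lower, and COX7B and NDUFB6 lie far from the line with neighbours near 0.

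Respiratory chain genes have many processed pseudogenes, so a probe set can also read a copy elsewhere. Of the members' 102 probe sets, 6 had an ID among the IDs of genes on another chromosome, or 5.88%, beside 1.21% of all placed probe sets. They belong to 6 of the 8 members with 2 probe sets. For ATP5MK, a membrane subunit of complex V, the set brighter on average differed by -0.01 and the other set, with IDs of chromosome X genes, by -1.09. That other set was the brighter one in the vector control, at 8.17 against 7.97. In the HIF2A array it had 7.08 against 7.96, so the choice of set rests on the HIF2A array. NDUFS4, an N module subunit, had 0.26 on the brighter set and -0.45 on the other, which was at background in both arrays. NDUFV2 agreed within 0.03, at 0.40 and 0.37, and the 2 sets of NDUFB4 were equal. For SDHC, SDHD and NDUFAF2 the brighter set is the one with IDs of another chromosome. The median gap between the sets of a gene was 0.125.

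**Figure D4:**
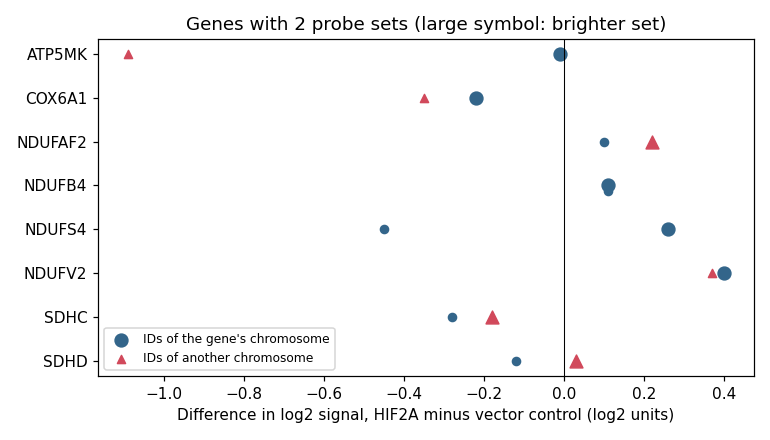
Difference in log2 signal (x axis, log2 units) of each probe set of the 8 members with 2 probe sets; large symbols are the brighter set, and red triangles are sets whose IDs lie among those of genes on another chromosome. The triangle of ATP5MK lies at -1.09, far from the circle of the same gene at -0.01.

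Genes that build or feed the chain were taken from lists outside the members. Of 39 measured assembly factors of all complexes, 2 were higher and 4 lower by 1.5-fold or more. Their median was 0.14, or 0.10 with loess scaling and 0.02 with the neighbours' median subtracted. COA1, an assembly gene of complexes I and IV on chromosome 7, was the lowest, at 8.52 against 9.60, among neighbours with a median of -0.51. COA6 and COA7, which act in complex IV assembly, were each 1.69-fold lower, and TMEM126B, of complex I assembly, 1.53-fold lower. FOXRED1, of complex I assembly, and COX15, which makes heme a for complex IV, were 1.54-fold and 1.53-fold higher, and LRPPRC, which stabilises mitochondrial mRNAs, had 0.49. The 11 genes of coenzyme Q synthesis had a median of 0.12 and ranged from -0.50 for COQ7 and -0.46 for COQ5 to 0.27 for COQ8A. The 11 measured genes of the TCA cycle had a median of 0, with SUCLG2 1.61-fold lower, the shared dehydrogenase gene DLD at -0.38 and IDH3A highest at 0.44. Of 14 regulators, the nuclear receptor gene ESRRA was 1.66-fold higher, at 6.27 against 5.54. TWNK and TFB2M had 0.45 and 0.32, NRF1 -0.26, POLRMT -0.23 and TFAM -0.16, and their median of 0.035 came to -0.005 under quantile scaling. Of 10 mitochondrial genes linked to HIF, 4 were higher by 1.5-fold or more and 0 lower by as much. They are BNIP3, PDK1 at 8.15 against 6.89, LONP1 at 7.03 against 6.34 and SIRT3 at 7.24 against 6.65. BNIP3L, also in this list, had 7.68 against 7.56, a difference of 0.12. CHCHD2, HIGD1A and CHCHD4 had -0.45, -0.44 and -0.29. Of all genes, 7.19% were at least 1.5-fold apart. Most genes of these lists passed the filter, and of all genes past it 5.67% were higher and 4.76% lower by as much, together 10.4%. These lists were drawn up with results for some of their genes known.

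**Figure D5:**
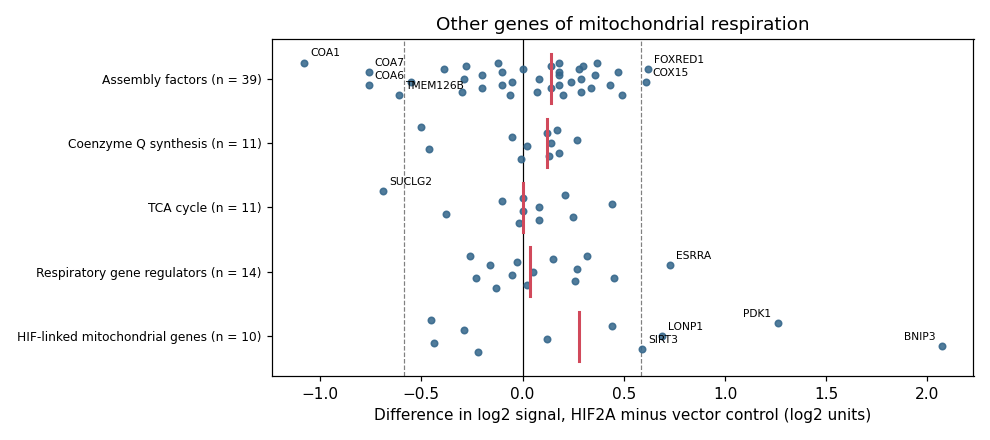
Difference in log2 signal between the HIF2A and the vector control array (x axis, log2 units) for genes of 5 lists outside the members, 1 point per gene; red bars are medians and dashed lines mark 1.5-fold. BNIP3 and PDK1 lie farthest right at 2.07 and 1.26, and COA1 lies farthest left at -1.08.

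Motifs of regulators known for respiratory genes were counted in the same promoter windows, with 78 members matched by 95 windows. The NRF1 motif, GCGCA and GCGC with any base between them, was in 17.9% of the member windows, 5.78% of all windows and 10.1% of the windows of genes past the filter. The ETS motif CCGGAAG, read by GABPA, was in 23.2%, 10.3% and 16.9%, and the YY1 motif AAGATGGCG in 9.47%, 1.75% and 3.52%. The hypoxia response element core was in 61.1% of the member windows, 48.4% of all windows and 61.4% of the windows of genes past the filter. All motifs were searched on both strands, and an NRF1 match can hold a hypoxia core. The 51 members with a hypoxia core in some window had a median difference of 0.02, and the 27 without one 0.01. The 17 with an NRF1 motif had a median of 0.11 and ranged from -0.29 to 0.44, and the 61 without had a median of -0.01 and ranged from -0.95 to 1.37. For the ETS motif the medians were 0.02 with and 0.02 without it, and for the YY1 motif 0.09 over 8 members and 0.02 over 70. Promoters of the 4 lower members that matched held the hypoxia core in 1 case, NDUFC1, and none of the other motifs. NDUFC1 held the core in 2 of its 4 windows. Counted by gene, 70.1% of the genes past the filter held the hypoxia core in some window. For the NRF1, ETS and YY1 motifs these gene shares were 13.4%, 21.9% and 4.77%. With 4 genes, the absence of these motifs cannot be told from such shares and is not read.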

How the data were processed

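RNA of LP-1 cells was measured on 2 arrays, 1 per group. Per the submitters' processing notes the authors used Affymetrix Expression Console, and each deposited value is a log2 signal of 1 probe set. The sources used here do not give the algorithm, background correction or genome build, and the scanner files were not used. The log base follows from the highest value, 13.97, above 11.09, the natural log of the largest 16-bit reading.

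Of 28869 probe sets, 19310 had 1 gene symbol, and 19278 of these were matched by Entrez number to RefSeq of GRCh38.p14, used for names and gene order. A gene with several probe sets is represented by the brightest on average. Main values use no filter. Neighbours are up to 20 genes past the filter, the nearest in gene order, taken equally from both sides. Genes near a chromosome end have fewer. Any member may be named, and in other lists up to 3 genes in each direction. TMEM126B, SIRT3 and BNIP3L were added after their values were seen. The members, lists, subgroups and motifs were chosen with earlier results of these data known. Olfactory receptor genes gave the background. Alternatives were quantile, median and loess scaling (span 0.3, 3 passes), 32 added on the linear scale, filters at the median and 75th percentile, other probe set choices, subtracted neighbours, 2-fold and subunits only. The code was tested on simulated data. Python 3.11.15, numpy 2.4.6, pandas 2.3.3, statsmodels 0.14.6 and matplotlib 3.10.9 were used.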

Additional observations from a re-analysis of the deposited data

How the results depend on the processing

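No paired analysis was possible because each group has 1 array, and for the same reason no replicate could be left out. The number of arrays limits the precision, and 6 members at background in both arrays have no fold. Of 116 alternative values of 10 results, 103 stayed within the spread used. For medians this was the members' robust SD over the root of their number. For single genes it was the robust SD of all genes, and for counts 1.5 times. Such a spread treats genes as replicates and is wide for small sets and single genes, so the 103 are not read as stable. Complex II, at 0.03, counted as within it at -0.12 with the dimmer probe sets. COXFA4L2, at -0.08, did so at 0.07 with neighbours subtracted. The median of all members, 0.015, was -0.011 with loess scaling, -0.01 with subunits only and -0.04 with neighbours subtracted. With neighbours subtracted the medians of complexes II, III, IV and V were -0.155, -0.055, -0.025 and -0.0125. Complex IV had -0.05 past the filter at the median, where its dim isoforms drop out. Complex I stayed between -0.12 and -0.07 throughout. With median centring 2 members were higher, NDUFA2 being added, and 4 lower, NDUFB5 being lost at -0.58. With quantile scaling NDUFB3 made 6 lower. The count of lower members was 1 with 32 added, NDUFC1, and 1 with neighbours subtracted, NDUFB6, so no member stayed lower in both. The count was 0 at 2-fold and 2 without chromosomes 4, 5 and 7. Leaving out those chromosomes, leaving out members at background and taking the probe set of the gene's own chromosome were chosen after seeing the data. The sign of 10 members, whose differences stayed within 0.06, changed between scalings.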

Other observations

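Subunits whose probe set carries several symbols were kept out of the members, and their values are given here without a reading for the single gene. The probe set shared by NDUFC2, a proximal P module subunit of complex I, and its readthrough NDUFC2-KCTD14 had 7.18 in the vector control and 7.77 with HIF-2α, which differ by 0.59. That of NDUFS5, shared with 3 other symbols, had 8.38 and 8.48. That of ATP5F1E, the epsilon subunit of the F1 head, shared with a readthrough, had 7.12 and 7.33. The 2 probe sets shared by SDHA and its pseudogenes differed by 0.38 and 0.47, beside 0.36 on the probe set of SDHA alone. The probe set shared by UQCRH, its copy UQCRHL and GNA13 differed by -0.29, whereas that of UQCRH alone differed by 0.02. The pseudogenes ATP5F1EP2 and UQCRBP1 among the members had 0.26 and -0.27.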
